A study of Mus musculus with 32 samples.

Results

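The measurements concerned the first day of milk secretion in the mouse mammary gland. The 4 arrays whose titles name lactation day 2 (LD2) were compared with the 4 whose titles name lactation day 1 (LD1), 8 of the 32 arrays in the series. Both groups were wildtype FVB mice, an inbred laboratory strain, kept on the normal-fat chow diet, and the labels name no agent or transgene for either. Whole excised gland was homogenised as individual samples, so each value averages epithelium, fat, stroma, vessels and blood cells. The labels do not state how the replicates relate to individual dams, and the p-values measure the spread between these samples. Age, litter size and hour of collection are not stated in the labels. The other 12 arrays of the chow time course, at pregnancy days 12 and 17 (PD12 and PD17) and lactation day 9 (LD9), entered the shared estimate of the spread and the filter on low values, and their levels are given beside some genes and in a closing contrast of LD9 with PD17.

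Around birth the alveolar epithelium of the gland passes from colostrum to copious milk. The fall of progesterone, in the presence of prolactin, closes the tight junctions between the cells and starts the synthesis of lactose, the sugar that draws water into milk. Caseins and whey proteins leave through the endoplasmic reticulum (ER) and Golgi, while fat made in the same cells is budded off in a membrane envelope. The fat pad around the alveoli shrinks as the epithelium fills the gland.

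Levels are log2 intensities of probe sets, a gene being read by its brightest single-gene probe set, and differences are LD2 minus LD1 on that scale with the standard error (SE) of the limma fit. A level below 4.22, the median of all deposited values, was treated as not above background. Median intensity ran from 17.6 to 18.6 at LD1 and from 19.0 to 19.9 at LD2. One array stood apart from its label. LD1 replicate 1 correlated with the mean of the other LD1 arrays at 0.979 and with the mean of the LD2 arrays at 0.9816, whereas the other LD1 arrays gave 0.9906 to 0.9916 and 0.9718 to 0.9761. Counts of calls are therefore also given without it where they differ. That array was picked from these same values for its closeness to LD2. Leaving it out therefore tends to widen the differences between the stages. Larger counts and smaller p-values without it are no separate support for a change. The controls that are added at hybridisation also differed between the stages. All 9 probe sets of bioB, bioC, bioD and cre were higher at LD2 without overlap, by 0.77 to 1.29. The 5′ probe set of 18S ribosomal RNA read 5.37 to 5.83 at LD1 and 3.72 to 3.89 at LD2, and the B1 repeat 11.61 to 12.23 and 9.96 to 10.63, while the B2 repeat lay between 13.94 and 14.12 in all 8 arrays. LD1 replicate 1 sat with the other LD1 arrays on these controls. The part of these shifts in the results below was not tested.

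**Figure D1:**
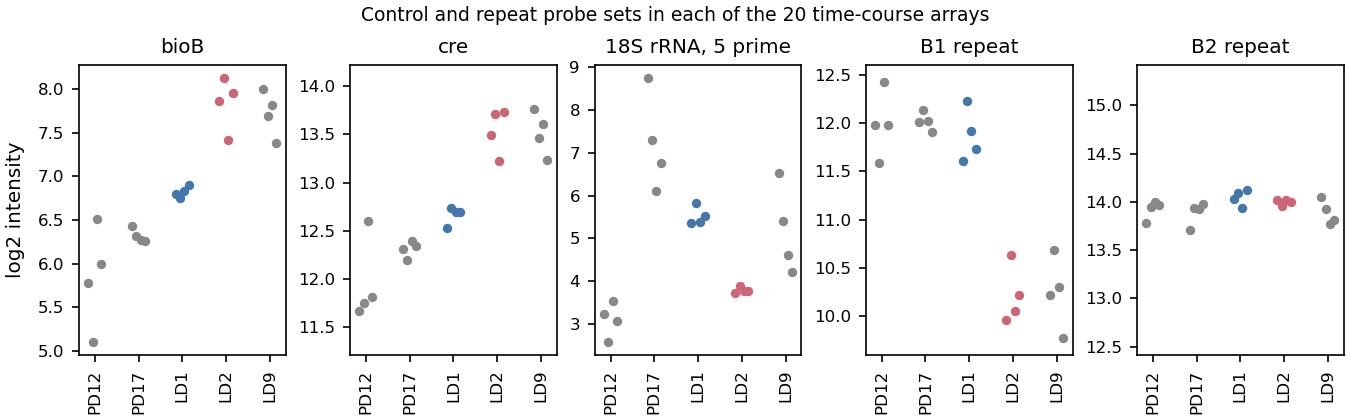
Log2 intensity (vertical axes) of 2 hybridisation controls, the 5′ probe set of 18S ribosomal RNA and 2 genomic repeats in each of the 20 arrays of the time course (points), by stage, with LD1 in blue and LD2 in red. Controls bioB and cre are higher and the B1 repeat lower in all LD2 and LD9 arrays than in all LD1 arrays, and B2 is level.

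The day brought many small changes and few large ones. Of 5480 genes tested, 316 were higher at LD2 (5.77%) and 455 lower (8.3%), together 771 (14.1%), at a Benjamini-Hochberg adjusted p under 0.05 in limma. The rises included the junction gene Jup, the kinase Akt1 and the metabolic enzymes Pkm and Cs, and the falls included proteasome subunits, ER chaperones, respiratory chain subunits and adipocyte markers. The median size of a called rise was 0.50 and of a called fall 0.66. Counted over probe sets, 1027 of 7189 were called (14.3%), 439 higher (6.11%) and 588 lower (8.18%), and 23 of the rises and 83 of the falls reached 2-fold. Without LD1 replicate 1 the genes called numbered 389 higher (7.1%) and 613 lower (11.2%), with 717 of the 771 among them. These shares, and the 5.77% and 8.3% above, are the background for the list counts below. Leaving out LD1 replicate 2, 3 or 4 instead gave 561, 523 and 595 called probe sets, and leaving out LD2 replicate 3 or 4 gave 642 and 600. Over genes, leaving out 1 LD1 or LD2 array other than LD1 replicate 1 left 139 to 243 higher and 265 to 388 lower, and most list counts below fell with them. Genes whose 4 LD2 arrays all lay above the 4 LD1 arrays made up 17.9% of those tested, and those wholly below made up 9.76%. Over probe sets these shares were 19.2% and 9.6%, together 28.8%. The balance of rises and falls depended on the scaling. Lower calls made up 57.3% of called probe sets on the deposited scale, 48.6% after a second quantile normalization, 36.5% with array medians set equal and 30.2% with the ribosomal protein medians set equal, the last 2 moving the median difference of all probe sets from 0.04 to 0.11 and 0.17.

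**Figure D2:**
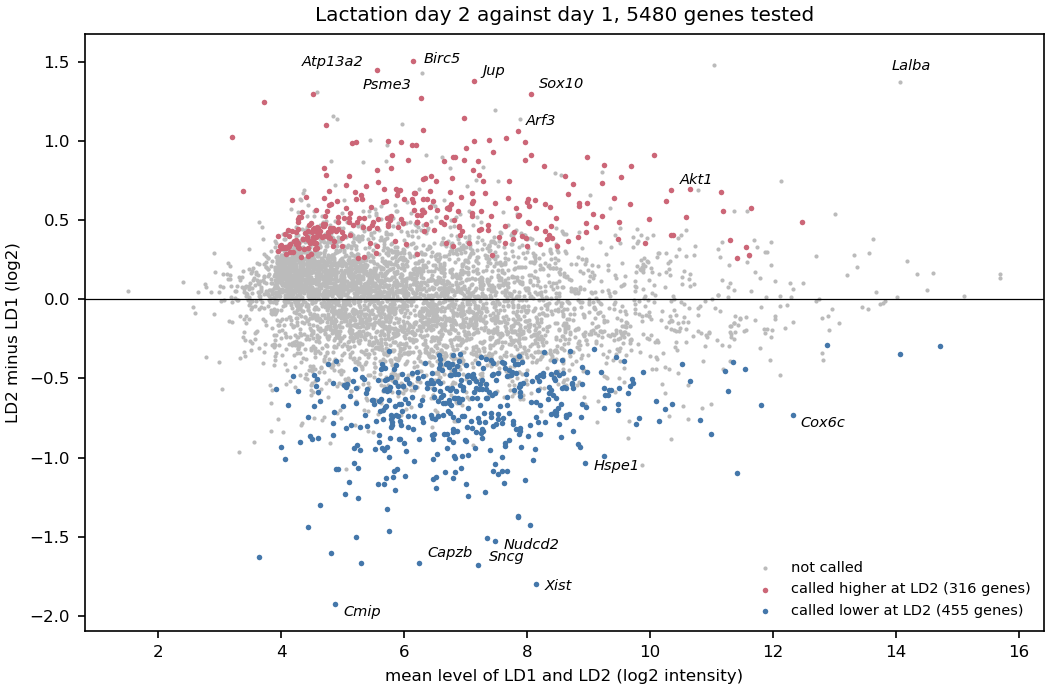
Difference LD2 minus LD1 (log2, vertical axis) against the mean level of both stages (log2 intensity, horizontal axis) for the 5480 genes tested, each a point, with called rises in red and called falls in blue. On the deposited scale there are 455 falls and 316 rises, and Xist lies at -1.80; Cmip, the lowest point, has an LD2 mean below the background line.

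Among the larger rises were genes of moderate level. Jup, which encodes plakoglobin, a catenin of desmosomes and adherens junctions, read 6.84, 6.58, 6.28 and 6.09 at LD1 and 8.26, 7.79, 7.82 and 7.42 at LD2. Every LD2 array was above every LD1 array, and the difference was 1.38 ± 0.18 (adjusted p = 0.000277, n = 4 per stage). Sox10, a transcription factor of neural crest and of mammary progenitor cells, read 7.19, 7.52, 7.47 and 7.48 at LD1 and 8.73, 8.64, 8.77 and 8.71 at LD2. LD1 replicate 1 lay slightly below the other LD1 arrays, and a wide gap separated the stages, 1.30 ± 0.22 (adjusted p = 0.00129). The other tested probe set of Sox10 differed by 1.46. Psme3, a nuclear activator of the proteasome core, read 5.54, 5.71, 5.73 and 5.59 at LD1 and 7.18, 6.73, 7.18 and 6.58 at LD2. It rose by 1.27 ± 0.21 (adjusted p = 0.00107) without overlap. Arf3, a small GTPase of Golgi vesicle budding, read 7.47, 7.46, 7.23 and 7.10 at LD1 and 8.46, 8.33, 8.53 and 8.19 at LD2, a difference of 1.06 ± 0.10 (adjusted p = 1.53e-05). One other Arf3 probe set differed by 1.16 and another by 0.11, so the probe sets of this gene disagree in size.

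Several of these high levels were seen at LD2 alone among the lactating stages. At LD9 Jup read 6.63 ± 0.33 (SD, n = 4), Psme3 5.60 ± 0.46 and Arf3 7.59 ± 0.12, against LD2 means of 7.82 ± 0.34, 6.92 ± 0.31 and 8.38 ± 0.15. Sox10 was at 9.03 ± 0.59 at LD9 and 8.42 ± 0.38 at PD12, and its lowest stage means were 7.41 ± 0.15 at LD1 and 7.59 ± 0.21 at PD17. These levels at other stages are given side by side and were not tested against LD2 here.

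Other large rises were Atp13a2, a lysosomal transport ATPase (1.45 ± 0.32), Pabpn1, a nuclear poly(A)-binding protein (1.02 ± 0.14), and Zfp692, a zinc finger gene whose LD1 mean was below the background line, so that the size of its rise was not measured. Atp6v0a1, a subunit of the proton pump of vesicles, rose from 2.94 to 3.27 at LD1, below that line, to 3.82 to 4.67 at LD2. Ace, which encodes angiotensin-converting enzyme, passed the test (adjusted p = 0.024) with an LD1 mean below the background line, but read 6.16 and 6.08 in LD2 replicates 2 and 4 and 4.27 and 4.17 in replicates 1 and 3. Leaving out either high array ended its call, as did leaving out LD1 replicate 2, 3 or 4 (adjusted p up to 0.088). Zbed3 also passed, with both stage means below the background line, so no fold is given.

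Among the falls, Xist, the noncoding RNA that coats the inactive X chromosome, read 8.30, 9.79, 9.10 and 9.00 at LD1 and 7.48, 7.53, 7.07 and 6.94 at LD2. It fell by 1.80 on the log2 scale (SE 0.29, adjusted p = 0.000938) with no overlap, and by 2.05 without LD1 replicate 1. Its level was 5.65 ± 0.51 at PD12, 9.72 ± 0.40 at PD17 and 7.31 ± 0.35 at LD9 (SD, n = 4). Capzb, a cap of actin filament ends, read 6.58, 7.08, 7.28 and 7.39 at LD1 and 5.87, 5.11, 5.65 and 5.03 at LD2 (-1.67 ± 0.21, adjusted p = 0.00015). Nudcd2, a gene of the NudC family, read 7.84, 8.57, 8.14 and 8.41 at LD1 and 7.05, 6.64, 6.85 and 6.32 at LD2, likewise without overlap (-1.53 ± 0.26, adjusted p = 0.00131). Cd59a, an inhibitor of complement (-1.67 ± 0.30), and Lsm3, a spliceosomal protein (-1.50 ± 0.24), fell to LD2 levels near the background line. Cmip, an adaptor protein, Bysl, a ribosome assembly factor, and Wfdc12, a whey-acidic-protein family inhibitor, were called lower but had LD2 means below that line, so the exact size of these falls was not measured. A weaker probe set of Wfdc12 was called in the opposite direction (0.30), so this gene is uncertain.

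Milk protein genes stood at high levels on both days. None of the 16 tested members was called by limma in the fit of 20 arrays (4 higher and 0 lower at an unadjusted p under 0.05), although 15 had positive differences, with a median of 0.20 beside 0.02 over all genes tested. This lean depended on the scaling. After a second quantile normalization 11 were positive and 5 negative, with a median of 0.10. With array medians or ribosomal protein medians set equal, all 16 were positive. Without LD1 replicate 1, Muc1 and Egf were called higher, and with only the 8 arrays in the fit 3 members were called higher, where 7.87% of all genes were. Wap, the whey acidic protein, read 15.76, 15.57, 15.55 and 15.59 at LD1 and 15.79, 15.74, 15.71 and 15.76 at LD2, and Csn2, beta-casein, 14.11, 14.04, 14.06 and 14.03 against 14.30, 14.34, 14.16 and 14.40. Neither difference, 0.13 ± 0.18 and 0.24 ± 0.10, was called (adjusted p = 0.635 and 0.101), though the Csn2 arrays did not overlap.

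Lalba stood out among them in size. This gene encodes alpha-lactalbumin, which turns a Golgi galactosyltransferase into lactose synthase. It read 13.34, 13.60, 13.40 and 13.16 at LD1 and 14.71, 14.77, 14.69 and 14.82 at LD2, so all LD2 arrays were more than 1 log2 unit above all LD1 arrays. The difference was 1.37 ± 0.47, or 2.58-fold, with adjusted p = 0.0547 in the fit of 20 arrays and 0.000674 with only LD1 and LD2 in the fit. The SD of Lalba was 1.57 at PD12 against 0.18 at LD1 and 0.06 at LD2, and the larger fit pools these spreads. Its level at LD9 was 14.41 ± 0.15. B4galt1, the galactosyltransferase partner, differed by -0.09 ± 0.22 (adjusted p = 0.802), and Slc2a1, the main glucose transporter of the gland, by 0.29 ± 0.21 (adjusted p = 0.357).

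**Figure D3:**
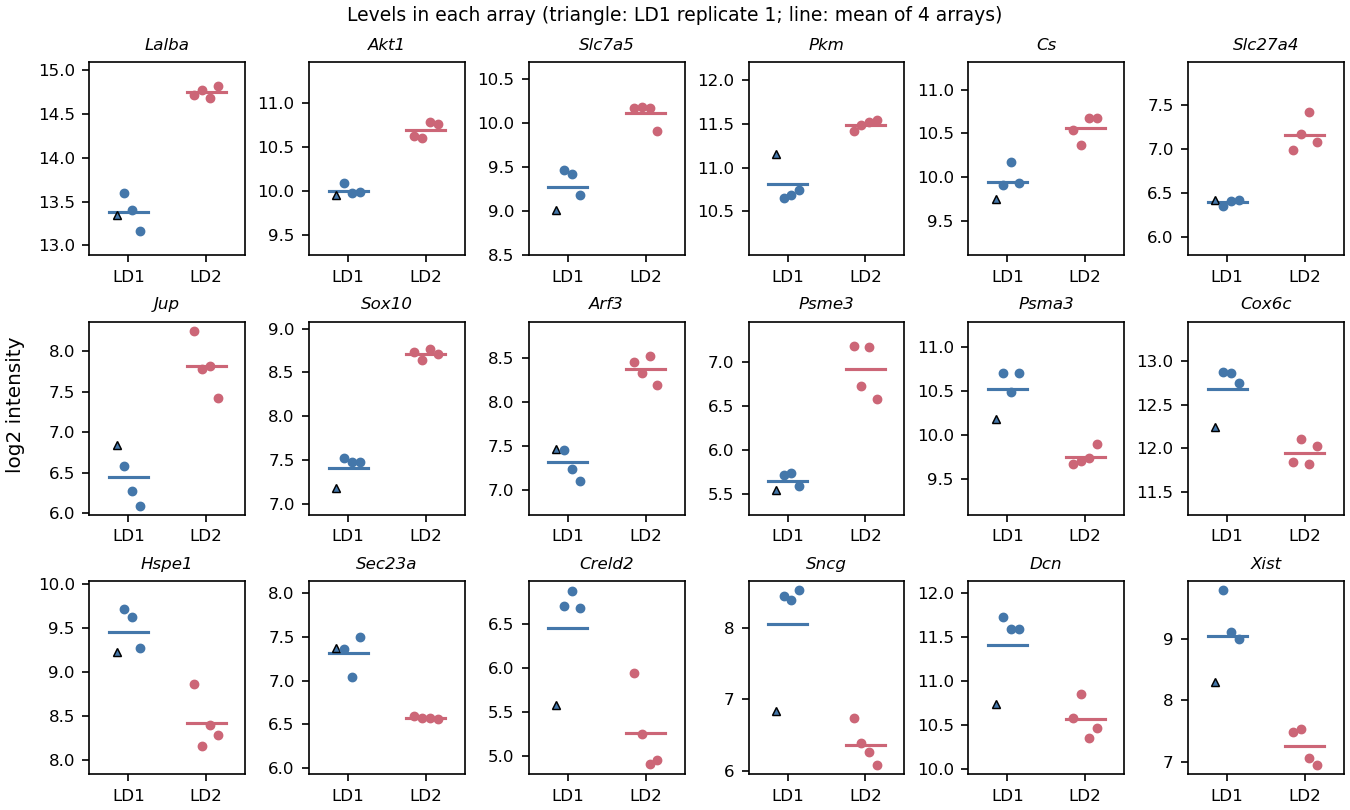
Log2 intensity (vertical axes, different ranges) of 18 genes in the 4 LD1 arrays (blue) and 4 LD2 arrays (red), with the mean of each stage as a line and LD1 replicate 1 as a triangle. For Lalba, Akt1 and Arf3 the triangle lies with the other LD1 arrays, and for Sox10 slightly below them, away from LD2. For Creld2, Sncg and Dcn it lies nearer to LD2.

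Genes of fatty acid synthesis leaned upward, with calls in single genes. All 14 tested members had positive differences, with a median of 0.28. Of these, 2 were called higher (14.3%, against 5.77% of all genes) and 0 lower. Elovl6, an elongase of saturated fatty acids, read 7.55, 7.26, 7.24 and 7.28 at LD1 and 7.77, 8.44, 8.02 and 8.10 at LD2 (0.75 ± 0.24, adjusted p = 0.0415), but another probe set of similar level differed by -0.07. Mid1ip1, which activates acetyl-CoA carboxylase, rose by 0.63 ± 0.17 (adjusted p = 0.019), and a weaker probe set differed by -0.21, so the size of both rises is uncertain. The citrate carrier Slc25a1 read 12.05, 11.77, 11.54 and 11.63 at LD1 and 12.68, 12.20, 12.55 and 12.53 at LD2, without overlap, and differed by 0.75 ± 0.26 (adjusted p = 0.0603). Without LD1 replicate 1 the called members numbered 4, Slc25a1 and the desaturase Fads1 joining, where 7.1% of all genes were higher. Leaving out LD1 replicate 4 or LD2 replicate 4 left 0 by limma (6 and 5 at an unadjusted p under 0.05). Leaving out any other single array left 1. Acly, which splits citrate into acetyl-CoA, differed by 0.29 ± 0.12 (adjusted p = 0.116), Fasn, the fatty acid synthase, by 0.28 ± 0.15 (adjusted p = 0.215) and Scd1, a desaturase, by 0.06 ± 0.20 (adjusted p = 0.86), with a weaker probe set of Scd1 at -1.21 (adjusted p = 0.0974).

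Lipid handling beyond synthesis changed in single genes. Slc27a4, a fatty acid transport protein with acyl-CoA synthetase activity, read 6.42, 6.35, 6.41 and 6.42 at LD1 and 6.99, 7.17, 7.42 and 7.08 at LD2, without overlap (0.76 ± 0.12, adjusted p = 0.00093). Dhcr7, the last step of cholesterol synthesis, rose by 1.14 ± 0.30 (adjusted p = 0.0183) and Sc5d, an earlier sterol desaturase, fell by 0.43 on the log2 scale. These were 1 rise and 1 fall among 16 cholesterol genes, whose median difference was -0.06. The falls were 2 without LD1 replicate 1 and 0 without LD1 replicate 3 or 4 or any 1 LD2 array, and the rise was lost without LD1 replicate 4 or LD2 replicate 1. In beta oxidation 3 of 23 genes were lower (13%, against 8.3% of all genes) and 0 higher. Among the falls, Acaa1a, a peroxisomal thiolase, differed by -0.52 ± 0.12 and Eci1, a mitochondrial isomerase, by -0.47 ± 0.11. The lower calls were 2 without LD1 replicate 1. Srebf1, the regulator of sterol and fatty acid genes, ranged from 10.17 to 10.63 at LD1 and 10.07 to 11.11 at LD2, overlapping (0.18 ± 0.18, adjusted p = 0.522). Nr1h3, the liver X receptor alpha, was called lower (-0.59 ± 0.19, adjusted p = 0.0456), a call kept in 2 of 8 fits that each left out 1 array. Of 11 milk fat secretion genes 0 were called higher by limma and 1 lower (9.09%, against 8.3% of all genes), with a median of -0.05. The fall was Anxa1, at 7.30, 8.45, 8.41 and 8.42 against 6.92, 7.76, 7.31 and 7.04, overlapping through LD1 replicate 1. Without that array 1 was higher and 2 lower, and without LD1 replicate 2, 3 or 4 or LD2 replicate 3 or 4 the lower calls were 0. Xdh, the oxidoreductase of the globule coat, read 10.04, 10.30, 10.61 and 10.76 at LD1 and 11.20, 11.00, 11.06 and 11.22 at LD2. It did not overlap and differed by 0.69 ± 0.26 (adjusted p = 0.0765, or 0.0232 with only these 8 arrays), while its coat partner Btn1a1 was level (-0.05 ± 0.18).

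In central carbon metabolism single enzymes were called. Cs, citrate synthase, read 9.75, 9.91, 10.18 and 9.94 at LD1 and 10.54, 10.37, 10.67 and 10.67 at LD2 (0.62 ± 0.11, adjusted p = 0.00168). Pkm, pyruvate kinase, read 11.16, 10.66, 10.69 and 10.75 at LD1 and 11.42, 11.48, 11.52 and 11.55 at LD2 (0.68 ± 0.14, adjusted p = 0.00435). Neither gene overlapped between the stages, and both calls held in all 8 fits that left out 1 array. Of 22 citrate cycle and pyruvate genes 4 were higher (18.2%, against 5.77% of all genes) and 0 lower (list median 0.13). Besides Cs these were Idh3a, Sdhc and Pcx. The counts higher and lower were 3 and 2 without LD1 replicate 1. The higher calls were 1 without LD1 replicate 3 or LD2 replicate 1 or 3, and 2 in the other 4 fits that left out 1 array. Of 15 glycolytic genes 3 were higher (20%) and 1 lower (6.67%), against 5.77% and 8.3% of all genes. The rises were Pkm, Ldha and Pfkm, and the fall was Hk1, a hexokinase (-0.45 ± 0.11, adjusted p = 0.0103). The counts were 4 and 2 without LD1 replicate 1. The higher calls were 1 without LD1 replicate 2 or 4 or LD2 replicate 1 or 3. Tkt, the transketolase of the pentose phosphate path, rose by 0.49 ± 0.14 (adjusted p = 0.0275).

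Most calls in the respiratory chain were lower. Of 28 tested subunits 7 were lower (25%) and 2 higher (7.14%), against 8.3% and 5.77% of all genes. Negative differences were seen in 23 (median -0.18). Without LD1 replicate 1 the counts were the same, but the lower calls were 4 without LD1 replicate 2 or 4 or LD2 replicate 1 or 3, and the higher calls 0 without LD1 replicate 2 or 3 or LD2 replicate 2. Cox6c, a small nuclear-coded subunit of cytochrome oxidase, read 12.24, 12.87, 12.86 and 12.74 at LD1 and 11.85, 12.11, 11.82 and 12.02 at LD2 (-0.73 ± 0.15, adjusted p = 0.00506). Uqcrc2, a core protein of complex III, read 12.01, 12.21, 11.97 and 12.32 at LD1 and 11.31, 11.55, 11.23 and 11.75 at LD2 (-0.67 ± 0.12, adjusted p = 0.0023). Both were lower in every LD2 array than in any LD1 array. Atp5l, of the ATP synthase, and Ndufa5, of complex I, fell as well. The 2 rises were in Uqcrc1, the other core protein of complex III, by 0.49 ± 0.13, and Ndufv1, of complex I, by 0.43 ± 0.13, so core proteins of the same complex moved in opposite directions. With the ribosomal protein medians set equal the lower calls were 3 and the median -0.05.

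Among the amino acid transporters and the regulators of the alveolar cell, Slc7a5 and Akt1 were called higher, each without overlap. Slc7a5, the light chain of a large neutral amino acid exchanger, read 9.01, 9.46, 9.42 and 9.18 at LD1 and 10.18, 10.18, 10.18 and 9.90 at LD2, a 1.79-fold difference without overlap (0.84 ± 0.19, adjusted p = 0.0075). Its heavy chain Slc3a2 differed by -0.21 ± 0.20 and was not called, and 1 of 9 amino acid transporters was called in all. Akt1, a kinase below the insulin and prolactin receptors, read 9.95, 10.09, 9.98 and 9.99 at LD1 and 10.62, 10.60, 10.79 and 10.76 at LD2. The 2 stages were apart by 0.69 ± 0.11 (adjusted p = 0.00077), and LD1 replicate 1 lay with its stage. Among the 32 regulators of the alveolar cell, Akt1 was the 1 called higher and Igf1 and Nfia were called lower, Igf1 by -0.63 ± 0.20 (adjusted p = 0.0402). Another probe set of Igf1 differed by 1.00 and the mean of both by 0.18, so the direction of Igf1 depends on the probe set. The lower calls of this list were 3 without LD1 replicate 1 and 0 without LD1 replicate 2, 3 or 4 or LD2 replicate 3. Stat5a (-0.16 ± 0.22) and Elf5 (-0.20 ± 0.14), transcription factors of the alveolar lineage, were not called.

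The proteasome is the barrel-shaped protease that degrades ubiquitin-tagged proteins, built of alpha and beta rings and a regulatory cap. Of 30 subunits 10 were lower and 0 higher (33.3% against 8.3% of all genes), and 25 had negative differences, with a median of -0.27. Psma3, an alpha ring subunit, read 10.18, 10.71, 10.49 and 10.71 at LD1 and 9.67, 9.71, 9.74 and 9.90 at LD2 (-0.77 ± 0.13, adjusted p = 0.00136). Psma7, also of the alpha ring, read 9.54, 9.89, 9.86 and 10.00 at LD1 and 8.84, 9.30, 9.15 and 9.19 at LD2 (-0.70 ± 0.13, adjusted p = 0.00202). The cap ATPase Psmc6 read 9.57, 10.05, 9.99 and 10.16 against 9.17, 9.37, 9.34 and 9.50 (-0.59 ± 0.15, adjusted p = 0.0138). None of these overlapped, and LD1 replicate 1 was the lowest LD1 array for Psma3, Psma7 and Psmc6. The catalytic beta subunits Psmb5 (-0.20 ± 0.18) and Psmb4, a structural one (-0.31 ± 0.15), were not called. Without LD1 replicate 1 the lower calls were 9, over all single leave-outs 3 (without LD1 replicate 2) to 9, and with ribosomal protein medians set equal 3. The activator Psme3, described above, rose over the same day, and Psmb10, an interferon-inducible catalytic subunit held in the interferon list, fell by 0.78 on the log2 scale (SE 0.17, adjusted p = 0.00634).

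Promoters of the falling subunits were searched for the core of the antioxidant response element, TGACNNNGC, on both strands of the RefSeq window from 250 bases before to 50 after each gene start, because the factor Nfe2l1 is known to raise proteasome genes through that element. It was in 2 of 8 called members that the promoter table held, in 2 of 16 uncalled members and in 14.0% of all 27025 genes of the table. The stretches around the matches of Psmc6, at chr14:45329574-45329630, and Psmd12, at chr11:107479278-107479314, both on the plus strand of GRCm38.p6 and upstream of the start, are shown with the element, which reads on the opposite strand, in capitals:
Psmc6: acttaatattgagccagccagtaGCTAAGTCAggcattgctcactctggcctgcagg
Psmd12: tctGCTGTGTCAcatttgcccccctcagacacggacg
A match is a string in this window and no evidence of binding. For the respiratory chain, the exact palindromic consensus of nuclear respiratory factor 1 was in 0 of 4 falling members in the table, in 2 of 18 tested members (11.1%) and in 1.07% of all genes.

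**Figure D4:**
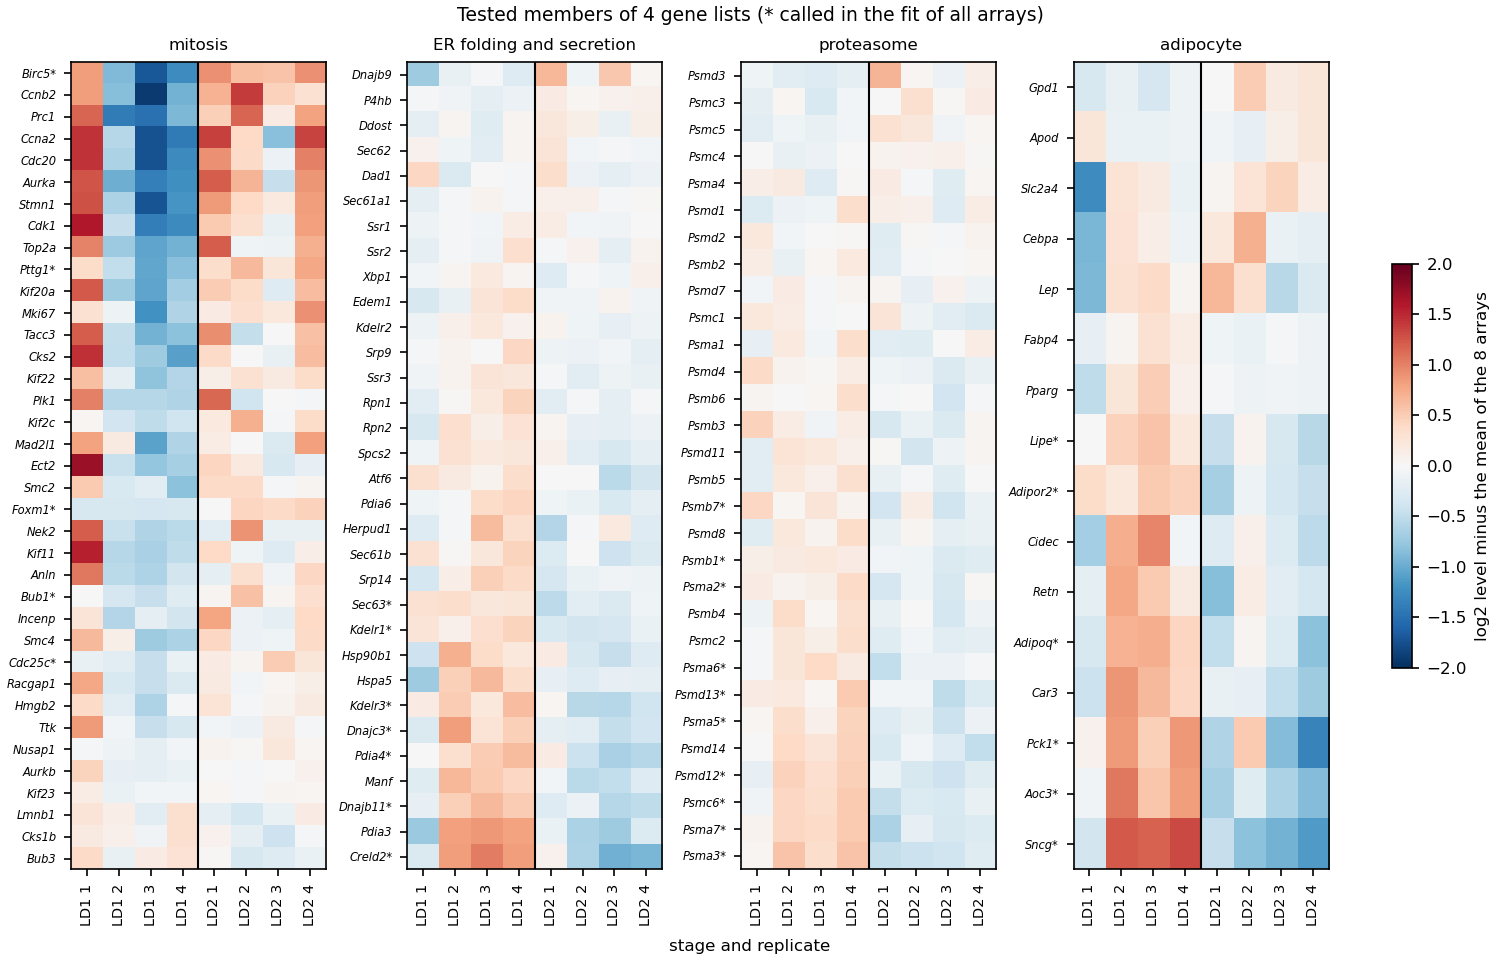
Level of each tested member of the mitosis, ER folding, proteasome and adipocyte lists in the 8 arrays (columns, 4 LD1 then 4 LD2), as log2 intensity minus the mean of the 8 arrays (colour), with members ordered by LD2 minus the mean of LD1 replicates 2 to 4 and called members starred. LD1 replicate 1 is red with the LD2 arrays for mitosis genes, and pale or blue for the ER and adipocyte genes that are red in LD1 replicates 2 to 4.

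The folding machinery of the ER rises with secretory load through the unfolded protein response. Of 32 genes of ER folding and secretion 7 were lower (21.9%, against 8.3% of all genes) and 0 higher (median -0.32, 26 negative). The 7 were Creld2, Dnajb11, Dnajc3, Pdia4, Sec63 and the cargo retrieval receptors Kdelr1 and Kdelr3. The lower calls were 12 without LD1 replicate 1, where 11.2% of all genes were lower. They were 4 without LD1 replicate 4, and 5 without LD1 replicate 2 or 3 or LD2 replicate 3 or 4. Creld2, a disulfide isomerase induced by ER stress, read 5.57, 6.70, 6.88 and 6.69 at LD1 and 5.94, 5.24, 4.90 and 4.95 at LD2. The first LD1 array was below the first LD2 array and all other LD1 arrays were above the LD2 range. The difference was -1.20 ± 0.26 (adjusted p = 0.00586), and -1.50 without LD1 replicate 1 (adjusted p = 0.000345). Dnajb11, a cochaperone, read 8.23, 8.87, 9.04 and 8.90 at LD1 and 8.14, 8.28, 7.82 and 7.89 at LD2 (-0.73 ± 0.17, adjusted p = 0.0108). Sec63, of the translocation channel, fell with no overlap and with LD1 replicate 1 among its group, from 6.67, 6.72, 6.59 and 6.61 to 5.85, 6.14, 6.08 and 6.28 (adjusted p = 0.00336).

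The calls of several abundant chaperones turned on the same array. Hspa5, the main ER chaperone BiP, read 11.24 in LD1 replicate 1 and 12.43, 12.60 and 12.30 in the others, against 11.79, 11.69, 11.78 and 11.77 at LD2. It differed by -0.38 ± 0.26 with all arrays (adjusted p = 0.314) and by -0.69 without that array (adjusted p = 0.0339). Pdia3, a protein disulfide isomerase, read 8.90 in LD1 replicate 1, 10.44 to 10.50 in the other LD1 arrays and 8.92 to 9.51 at LD2. Pdia3, Manf and Hsp90b1 were called lower without that array and not with all arrays. Xbp1, the transcription factor of the response, was level at 11.98 to 12.23 and 11.77 to 12.12 (adjusted p = 0.63). With ribosomal protein medians set equal, 3 ER genes were called lower and the median was -0.14. Outside the ER, Hspe1, the mitochondrial cochaperonin, read 9.23, 9.71, 9.63 and 9.27 at LD1 and 8.86, 8.16, 8.39 and 8.29 at LD2, a called fall with no overlap (-1.04 ± 0.18, adjusted p = 0.00144). It was 1 of 2 falls among 21 cytosolic and mitochondrial heat shock genes.

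The ER stress response element, CCAAT and CCACG with 9 bases of any kind between them, through which Atf6 acts, was searched in the same windows, a search chosen after the values were seen. Its opening letters are also the CCAAT box of NF-Y. It was in 2 of 7 falling members (28.6%), in 3 of 20 uncalled ones and in 37 of 27025 genes (0.137%). The matches of Creld2, at chr15:88819495-88819563, and Dnajc3, at chr14:118937802-118937870, both on the plus strand of GRCm38.p6, are shown because these genes fell, with the element in capitals, read on the opposite strand in Creld2:
Creld2: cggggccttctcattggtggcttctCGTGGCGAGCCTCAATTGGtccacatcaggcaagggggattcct
Dnajc3: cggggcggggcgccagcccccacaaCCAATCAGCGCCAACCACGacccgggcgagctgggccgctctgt

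Of 28 vesicle traffic genes 3 were lower (10.7%) and 2 higher (7.14%), shares near the 8.3% and 5.77% of all genes. The counts were 5 and 3 without LD1 replicate 1, and the higher calls were 0 without LD1 replicate 2 or 4 or LD2 replicate 2, 3 or 4. Sec23a, an inner coat protein of vesicles that leave the ER, read 7.37, 7.36, 7.04 and 7.50 at LD1 and 6.60, 6.58, 6.57 and 6.56 at LD2, with a gap between the stages (-0.74 ± 0.14, adjusted p = 0.00262). The membrane fusion proteins Stx4a (-0.91 ± 0.15, adjusted p = 0.00106) and Vamp8 (-0.66 ± 0.15, adjusted p = 0.00685) fell without overlap. Rab7, of late endosomes, and Arf1, of the Golgi, were called higher at 0.38 ± 0.13 and 0.26 ± 0.09. Another Rab7 probe set, with stage means of 7.99 and 8.08, differed by 0.10 and was not called, so the size of the Rab7 rise is uncertain.

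Cell division genes were the group most altered by LD1 replicate 1. Of 37 mitosis genes 5 were higher (13.5%, against 5.77% of all genes) and 0 lower with all arrays. The 5 were Birc5, Pttg1, Foxm1, Bub1 and Cdc25c. Without LD1 replicate 1, 18 were higher and 0 lower, where 7.1% of all genes were higher. Leaving out any other single array gave 1 (LD1 replicate 3) to 5. The mean level of the list was 6.12 in LD1 replicate 1, 4.97, 4.58 and 4.80 in the other LD1 arrays, and 5.77, 5.59, 5.35 and 5.78 at LD2. One LD1 array was thus above all LD2 arrays and 3 were below all of them. Birc5, survivin of the chromosomal passenger complex, read 6.98, 5.26, 4.44 and 4.88 at LD1 and 7.06, 6.75, 6.71 and 7.06 at LD2. It differed by 1.51 ± 0.43 (adjusted p = 0.0261), and by 2.04 without LD1 replicate 1 (adjusted p = 0.000785). Ccnb2, a mitotic cyclin, differed by 1.43 ± 0.54 (adjusted p = 0.0792) and by 1.95 without that array (adjusted p = 0.0136). Cdc20, Prc1 and Aurka, genes of chromosome segregation and cell cleavage, read 7.41, 5.75 and 6.10 in LD1 replicate 1, and 3.09 to 5.32 in the other LD1 arrays.

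Foxm1 behaved differently within this list. The transcription factor of the G2 and M phases read 4.39, 4.38, 4.37 and 4.39 at LD1 and 4.70, 5.14, 5.09 and 5.16 at LD2, with no sign of a high LD1 replicate 1 (0.64 ± 0.15, adjusted p = 0.00872). All 4 LD1 values lay just above the background line. Mki67, the proliferation antigen, read 9.52, 9.12, 8.00 and 8.62 at LD1 and 9.38, 9.55, 9.43 and 10.13 at LD2, overlapping (0.81 ± 0.46, adjusted p = 0.236, and 0.138 without LD1 replicate 1). In DNA replication 5 of 36 genes were higher (13.9%) and 1 lower (2.78%), against 5.77% and 8.3% of all genes. The counts were 9 and 1 without LD1 replicate 1. Leaving out LD1 replicate 3 or 4 left 0 higher by limma (5 in each fit at an unadjusted p under 0.05). Leaving out LD1 replicate 2 left 1, and leaving out 1 LD2 array left 2 or 3. Tk1, thymidine kinase, read 6.42, 5.31, 5.14 and 4.96 at LD1 and 6.68, 6.05, 6.84 and 6.23 at LD2 (0.99 ± 0.25, adjusted p = 0.0144). Orc6, of the origin recognition complex, was the fall, without overlap (-0.78 ± 0.17, adjusted p = 0.00621), and the replication clamp Pcna was not called (0.19 ± 0.26).

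Markers of the gland's cell types were compared next, and in whole tissue fewer cells of a type and less RNA per cell cannot be told apart. Of 16 adipocyte markers tested, 6 were lower (37.5%, against 8.3% of all genes) and 0 higher, with a median of -0.55. Differences were negative in 11 and positive in 5. Gpd1, a positive one, read 9.18, 9.36, 9.17 and 9.40 at LD1 and 9.49, 10.01, 9.69 and 9.74 at LD2. It did not overlap but was not called, and its weaker probe set differed by 0.005. With only the 8 arrays in the fit, 4 markers were lower and 1 higher. Without LD1 replicate 1, 8 were lower (median -0.75), where 11.2% of all genes were. The mean level of the list was 7.10 in LD1 replicate 1, 7.72 to 7.92 in the other LD1 arrays and 7.01 to 7.50 at LD2. Sncg, gamma-synuclein, abundant in fat cells, read 6.84, 8.44, 8.39 and 8.53 at LD1 and 6.74, 6.39, 6.26 and 6.08 at LD2 (-1.68 ± 0.30, adjusted p = 0.00168, and -2.09 without LD1 replicate 1). Aoc3, an amine oxidase of the fat cell surface, read 6.44, 7.57, 7.07 and 7.35 at LD1 and 5.85, 6.27, 5.88 and 5.65 at LD2 (-1.19 ± 0.25, adjusted p = 0.00484). Adipor2, an adiponectin receptor, fell with LD1 replicate 1 inside its group, from 8.55, 8.39, 8.71 and 8.65 to 7.53, 8.09, 7.84 and 7.73 (adjusted p = 0.00333). Adipoq, the fat cell hormone adiponectin, read 10.49, 11.50, 11.54 and 11.23 at LD1 and 10.31, 10.86, 10.54 and 9.99 at LD2, overlapping only through LD1 replicate 1 (-0.76 ± 0.23, adjusted p = 0.0324). Adig, adipogenin, which is outside the list, fell by 1.51 on the log2 scale (adjusted p = 0.0161). Leaving out LD1 replicate 2 or 4, or LD2 replicate 3 or 4, left 3 adipocyte calls.

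Other cell types showed few calls. No macrophage marker of 17 and no myoepithelial marker of 14 was called by limma (4 and 1 at an unadjusted p under 0.05), with medians of 0.02 and -0.10. Of 26 fibroblast and matrix genes 2 were lower (7.69%, near the 8.3% of all genes). They were Dcn, the collagen-binding proteoglycan decorin, and Mfap5, a microfibril protein. The lower calls were 3 without LD1 replicate 1 and 1 without LD1 replicate 3. Dcn read 10.74, 11.72, 11.59 and 11.60 at LD1 and 10.58, 10.86, 10.35 and 10.46 at LD2 (-0.85 ± 0.21, adjusted p = 0.0112), with LD1 replicate 1 again below its group. Among luminal markers 1 of 16 was lower, Epcam, an epithelial adhesion protein, at 6.67, 7.46, 7.35 and 7.35 against 6.03, 6.74, 6.29 and 6.41 (-0.84 ± 0.20, adjusted p = 0.0116). Endothelial markers gave 1 fall in 14, Emcn. A weaker Emcn probe set, with an LD1 mean of 4.14 below the background line, differed by 0.33, and another by -0.19. Neither was called. Hepatocyte and skeletal muscle markers had mean levels of 4.90 to 5.05 and 3.98 to 4.26 in the 8 arrays, near or below the background line, with 0 calls by limma (1 in each list at an unadjusted p under 0.05).

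**Figure D5:**
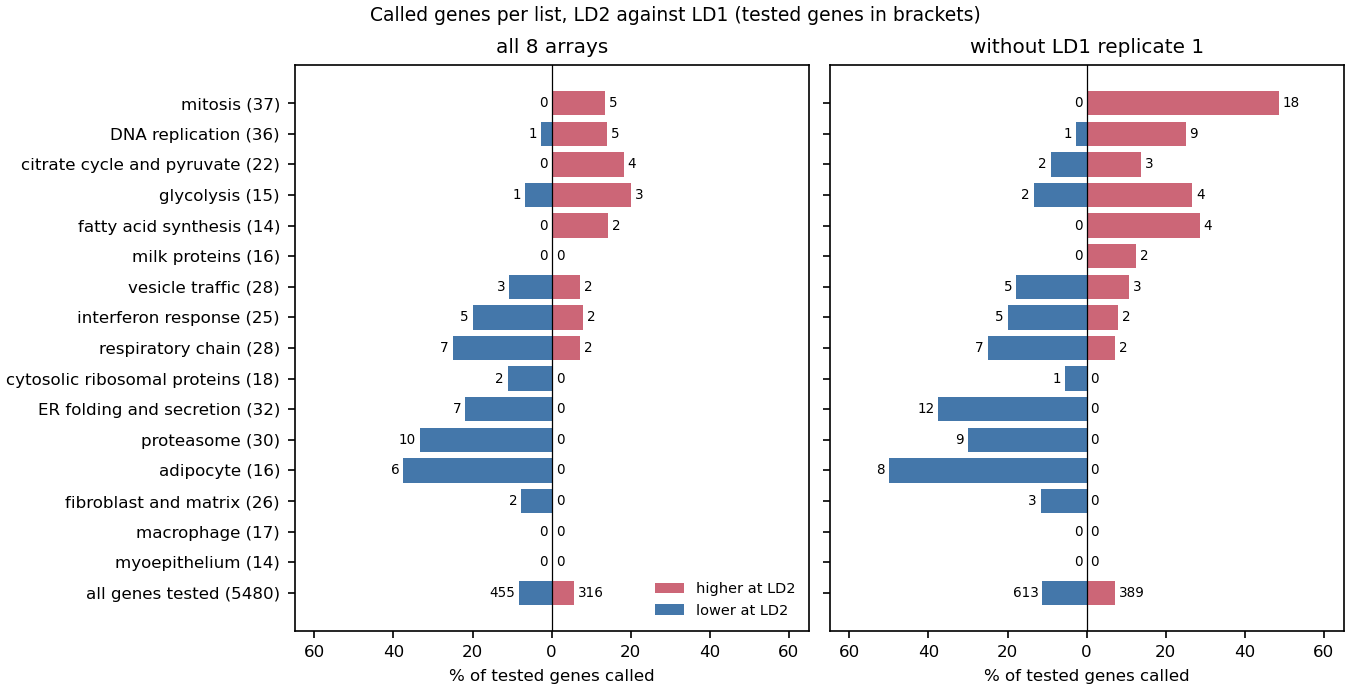
Share of tested genes called higher (red, to the right) and lower (blue, to the left) at LD2, in percent, for 16 lists and for all genes tested, with all 8 arrays and without LD1 replicate 1; numbers are called genes. The mitosis list goes from 5 to 18 higher and the ER list from 7 to 12 lower, whereas proteasome and respiratory chain counts differ by at most 1.

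Immune genes changed unevenly. In the interferon list 5 of 25 were lower (20%) and 2 higher (8%), against 8.3% and 5.77% of all genes (list median -0.31). The counts were the same without LD1 replicate 1, but they were 2 and 1 without LD1 replicate 3 or 4, and the lower calls were 3 without LD1 replicate 2 or LD2 replicate 1, 3 or 4. Ifi27l2a, an interferon-induced mitochondrial protein, read 7.21, 8.10, 8.73 and 8.25 at LD1 and 7.05, 7.36, 6.98 and 6.48 at LD2 (-1.11 ± 0.30, adjusted p = 0.0218). The 2 rises, H2-D1 (0.58 ± 0.11) and H2-K1 (0.28 ± 0.08), are class I antigen genes whose near-identical family members the probes may share, so they are uncertain. Of 10 B cell and plasma cell genes 2 were lower and 1 higher, with a median of 0.09 and 6 positive differences. The lower calls were 3 without LD1 replicate 1, 1 without LD2 replicate 4 and 0 without LD1 replicate 2 or 3 or LD2 replicate 1. Ighm, the IgM heavy chain, read 7.75, 9.74, 9.47 and 8.08 at LD1 and 6.71, 7.71, 7.67 and 7.24 at LD2 (-1.43 ± 0.40, adjusted p = 0.0231), but another of its probe sets was called higher (0.64). Jchain, which joins IgA and IgM units, differed by -1.32 ± 0.37 (adjusted p = 0.0228) and Igha by -1.05 ± 0.37 (adjusted p = 0.0614). No gene of the B cell and plasma cell list was called by limma with only the 8 arrays in the fit (3 higher and 3 lower of 7 at an unadjusted p under 0.05). Lrg1, a glycoprotein of the acute phase, rose without overlap from 7.46, 7.81, 7.77 and 6.84 to 8.11, 8.89, 8.81 and 8.04 (0.99 ± 0.22, adjusted p = 0.00634).

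The same genes were then read in LD9 against PD17, a contrast chosen after the values were seen. The LD2 minus LD1 differences do not use these arrays, but the estimate of spread and the filter behind the calls do. Genes called at LD2 tend to have a small shared spread, which eases a call in this contrast too. The shares below are therefore no independent support for the calls. Of the 316 genes higher at LD2, 190 (60.1%) were higher at LD9 than at PD17, against 29.8% of all genes tested, and 44 were lower. In that contrast 63.2% of all genes were called in either direction. Of the 455 lower genes 349 (76.7%) were lower, against 33.4%, and 13 were higher. Psma3 was lower by 1.21 log2 units at LD9 than at PD17, and Creld2 differed by -0.53 there without being called (adjusted p = 0.081). The hybridisation controls and the B1 repeat separate LD9 from PD17 in the same direction as LD2 from LD1, with bioB at 6.32 and 7.72 and B1 at 12.02 and 10.24 for PD17 and LD9. The part of that shift in these shares was not tested, and all 16 arrays shared the fit's estimate of spread.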

How the data were processed

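RNA of 32 samples was hybridised to Affymetrix arrays, about 5 µg of total RNA each per the labels. The authors deposited linear intensity values, made with GCRMA per the submitters' processing notes, with no version or settings named there. Values were floored at 1 (208 of 399616 lay below) and taken to log2. After 66 control probe sets were left out, testing was limited to probe sets with a mean of at least 4.22 (18.6 linear) in some stage of the 20 time-course arrays. Limma 3.58.1 in R 4.3.3 fitted these 20 arrays (lmFit, eBayes) with Benjamini-Hochberg adjustment over 7189 probe sets, and calls needed an adjusted p under 0.05. Precision is limited by how many arrays there are. Of 12422 probe sets, 10833 name 1 gene, 396 several and 1193 none. Symbols came from the array annotation, checked by Entrez ID in RefSeq (10817 matched, 0 changed). Promoters were RefSeq's for GRCm38.p6.

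The 45 gene lists (193 of 1137 genes had no single-gene probe set) and the members were chosen with earlier results of these data known. Named genes were the 10 largest rises and falls in which the stages did not overlap, at most 4 called members and 2 uncalled ones of each list, and a set of well-known genes. Muc1, Fads1, Slc25a1, Sec63, Dnajc3, Kdelr1, Pdia3, Manf, Hsp90b1, Psmd12, Cdc25c, Ccnb2, Cdc20, Prc1, Aurka, Adipoq, Uqcrc1, Ndufv1, Arf1, H2-D1 and H2-K1 were named after their values were seen. On simulated data with 200 changed probe sets, the fit recovered 90.4% of 2-fold and 53.1% of 1.5-fold changes. False calls made up 5.94% and 3.92% of calls. The simulated noise was independent and normal, with the same spread for a probe set at every stage. No simulated array deviated as a whole, as LD1 replicate 1 did, so these rates need not hold for the real arrays. Alternatives covered the filter, scaling, arrays in the fit, pseudocount, probe set choice, moderation, replicate block and single left-out arrays.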

Additional observations from a re-analysis of the deposited data

Results flagged for a closer look

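The named genes at each stage made 426 groups of 4 arrays. In 24 of these a single array lay apart from the other 3 by more than Dixon's 95% critical value. Chance gives about 5%, which is close to this share. LD1 replicate 1 was the array in 13 of the 24. Some of these genes, such as Pdia3 and Aurka, were named after their values were seen, so the 13 describe the named genes and are no test of LD1 replicate 1. In that array Sncg read 6.84 beside a group median of 8.42, Adig 6.91 (8.42), Pdia3 8.90 (10.45), Creld2 5.57 (6.70), Anxa1 7.30 (8.41), Dcn 10.74 (11.59), Epcam 6.67 (7.35), Nfia 5.68 (6.19) and Sox10 7.19 (7.48). It was high for Aurka at 6.10 (3.73), Top2a at 5.80 (3.98), Elovl6 at 7.55 (7.27) and Wap at 15.76 (15.58).

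The other arrays had 1 to 4 such values each or none. LD1 replicate 2 read 11.04 for Me1, the NADPH-making malic enzyme (11.21), and 8.65 for Psmb8 (8.35), and LD1 replicate 4 read 9.34 for Prdx3 (9.21). LD2 replicate 1 read 5.91 for Adig (6.78), 4.70 for Foxm1 (5.11), 8.83 for Prdx3 (8.95) and 9.20 for Tpm1 (8.78). LD2 replicate 2 read 11.69 for Hspa5 (11.78), 9.20 for Id2 (10.13) and 8.79 for Vamp8 (8.49), and LD2 replicate 4 read 9.90 for Slc7a5 (10.18). Several of these gaps are small on the log2 scale, because the other 3 arrays were nearly equal.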

How the results depend on the processing

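The main counts were 1027 called probe sets (439 higher, 588 lower), 106 at 2-fold or more and 2070 without overlap. Leaving out 1 LD1 or LD2 array in turn gave 523 to 1332 called, 177 to 537 higher and 336 to 795 lower. At 2-fold the range was 77 to 207, and without overlap 2247 to 3218. With fewer arrays, no overlap is a looser condition than 4 against 4, so that last range does not measure stability. Leaving out LD9 replicate 1 gave 2036 without overlap, with 7148 probe sets tested. The highest of each of the 5 counts came without LD1 replicate 1. Averaging the probe sets of a gene gave 641, 273, 368, 56 and 1377, over genes. Higher calls became 239 with the 75th percentile filter, 804 with equal array medians and 704 with equal ribosomal medians, and the last left 304 lower. A pseudocount of 16 left 43 at 2-fold. Without a filter 4974 probe sets did not overlap, and with the 75th percentile filter 965. Lower calls made up 44.4% of calls with no filter and 70.0% with the 75th percentile filter, beside 57.3%. With the replicate number as a block 1008 were called (412 higher, 596 lower). Same-numbered arrays of the 2 stages deviated together by 0.0733 to 0.135, and LD1 replicate 1 more with LD2 replicate 4 (0.161), so the numbers were not taken as pairs. Of the 107 named genes that were called, 45 kept their call in every alternative and 59 in all but single leave-outs. Igf1 turned from -0.63 to 0.18 with its probe sets averaged. Averaged probe sets and filters change how many features are tested, and leaving out an LD1 or LD2 array loosens the overlap condition. For the other shifts the cause was not tested.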

Other observations

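Beyond the groups above, stress, matrix and early response genes were called singly. Of 27 antioxidant and detoxification genes, Gsr, glutathione reductase, rose by 0.75 ± 0.18 without overlap (adjusted p = 0.0108, limma), a call kept in all 8 fits that left out 1 LD1 or LD2 array, and Prdx3, a mitochondrial peroxidase, fell by 0.31 on the log2 scale (adjusted p = 0.0323), a call kept in 2 of those 8; without LD1 replicate 1 the falls in that list were 2. Of 24 integrated stress and amino acid synthesis genes, Aldh18a1, which makes a precursor of proline, rose (0.63 ± 0.17, adjusted p = 0.0194) and Yars, the tyrosyl-tRNA synthetase, fell. Yars read 6.61, 6.74, 6.53 and 6.86 at LD1 and 5.96, 6.11, 5.73 and 5.85 at LD2, without overlap (-0.78 ± 0.17, adjusted p = 0.00564). Without LD1 replicate 1 the falls in that list were 2. Of 23 matrix proteases and inhibitors, Timp1, an inhibitor of these proteases, rose (0.51 ± 0.13) and Mmp3, stromelysin, fell (-0.93 ± 0.24), and without LD1 replicate 1 the falls in that list were 3.

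Of 23 immediate-early genes, Ier2 (-0.80 ± 0.24) and Klf10 (-0.86 ± 0.24) were lower and Zfp36, which destabilises mRNAs, was higher (0.53 ± 0.13). The lower calls of the list were 3 without LD1 replicate 1, 0 without LD1 replicate 3 and 1 in the other 6 single leave-outs. Sgk1, a kinase induced by glucocorticoids, ranged from 7.13 to 9.60 at LD1 and 6.56 to 8.40 at LD2, overlapping (adjusted p = 0.0417). Its call was lost in 6 of 8 single leave-outs (adjusted p up to 0.119). Cry1, a repressor of the circadian clock, was called lower on its brightest probe set (-0.90 ± 0.24) and higher on 2 weaker ones (0.34 and 0.43), so its direction is uncertain.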
